A study of Mus musculus with 6 samples.

Results

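The genes described here are the ligands, receptors, Smads, extracellular antagonists and Id genes of the transforming growth factor beta (TGF-beta) and bone morphogenetic protein (BMP) pathway. They were chosen by symbol, with a pattern that covers the Bmp, Gdf, Tgfb, Inh, Acvr, Bmpr, Tgfbr, Smad, Id, Nog, Chrd, Grem, Fst and Ltbp names. Earlier results of these data were known when the choice was made. The pattern matched 71 of 23358 rows of the gene table, of which 28 were ligands, 12 receptors, 8 Smads, 16 antagonists or latent binding proteins and 4 Id genes. The other 3, Bmp1, Bmp2k and Tgfbrap1, match the pattern but fall in none of these roles. Bmp1 encodes a procollagen protease that also cleaves the antagonist chordin, Bmp2k a protein kinase and Tgfbrap1 a cytoplasmic protein.

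RNA was sequenced from mesenchymal stem cells of C57BL/6 mouse bone marrow, adherent progenitors that can form bone, cartilage and fat cells. One group (3 libraries) received an siRNA against Dia2 and the other (3 libraries) a non-targeting control siRNA. Dia2 is the formin encoded by Diaph3 (listed as Diap3), a protein that lengthens unbranched actin filaments. In both groups the cells, at passage 6 to 12, had 24 h to adhere before an overnight lipid transfection (stated dose 50 nM siRNA), and RNA was taken 24 h after fresh medium. The labels give neither separate cultures nor separate animals for the 3 libraries of a group, so a p-value here rests on library-to-library spread that could be purely technical.

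TGF-beta family ligands bind pairs of type II and type I receptor kinases, which phosphorylate Smad2 and Smad3 after TGF-beta or activin, or Smad1, Smad5 and Smad9 after BMPs. These Smads enter the nucleus with Smad4, while Smad6 and Smad7 are induced by the pathway and inhibit it, and Id genes are early targets of BMPs. Follistatin and chordin trap ligands outside the cell, and latent TGF-beta binding proteins tether TGF-beta to the matrix. In marrow stromal cells BMPs are best known for driving bone formation and TGF-beta for inducing matrix genes.

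Total counts ranged from 78529650 to 95573070 in the Dia2 siRNA libraries and from 70538768 to 110006338 in the control siRNA libraries. The ribosomal precursor Rn45s took 6.05% to 10.9% of the counts with Dia2 siRNA and 6.00% to 11.7% with control siRNA, with its high values in Dia2 siRNA replicate 1 and control siRNA replicate 3. Diaph3 was 10.7-fold lower with Dia2 siRNA, at 7.52, 8.37 and 7.39 CPM, against 84.7, 80.1 and 84.8 CPM in the control siRNA libraries (CPM, counts relative to TMM-scaled library size). Of 12 mesenchymal stem cell markers 11 were high enough to test and 10 of these were higher with Dia2 siRNA (29.3% of all genes tested were), with summed levels of 5269 to 5337 CPM and 2914 to 3214 CPM in control siRNA libraries. Thy1, a defining marker, averaged 0.0356 CPM with Dia2 siRNA and 0.0200 CPM with control siRNA. Both means were under the floor of 6 counts (0.0545 to 0.0851 CPM), although Dia2 siRNA replicate 3 had 10 counts. Summed levels of 8 blood and macrophage markers were 10.4 to 11.3 CPM with Dia2 siRNA and 14.2 to 16.2 CPM with control siRNA, with the pan-leukocyte gene Ptprc under that floor on average in both groups (0.0373 CPM with Dia2 siRNA and 0.00593 CPM with control siRNA) and no Cd3e count in any library. Of the 3 tested from that list, Cd68 was 2.05-fold lower and Cd14 1.47-fold lower with Dia2 siRNA, Cd14 at 6.79 CPM with Dia2 siRNA and 10.01 CPM with control siRNA, and Csf1r did not pass (0.03). The part of these markers in the results below was not tested, and in bulk RNA fewer cells of a type cannot be told apart from less RNA per cell.

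Expression of the pathway differed between the groups in most members, usually by less than 2-fold and more often upward. Of the 71 members 55 had enough counts to test, and 29 of them were higher and 7 lower with Dia2 siRNA at an adjusted p of 0.05 (edgeR's quasi-likelihood test over 14151 genes, Benjamini-Hochberg adjustment). Over all genes tested the same rule called 59.2%, with 29.3% higher and 29.9% lower, so 65.5% of members called in either direction is close to the background, while the share of 52.7% higher and 12.7% lower is less even than it. The median log2 fold change was 0.39 over the 55 members and 0.0054 over all genes tested, and the medians of the absolute values were 0.45 for the members and 0.30 for all genes. At least 2-fold changes past the threshold numbered 8 upward and 1 downward, where 5.82% and 2.76% of all genes tested met these rules. Gdf6 and Bmp2, counted in the 8 and in the 29, reached the filter only with their Dia2 siRNA libraries. Their upward calls are therefore a description. The 3 Dia2 siRNA libraries lay wholly above or below the 3 control siRNA libraries for 41 of the 55, or 74.5%, against 64.6% of all genes tested. Exons of 11 of the 36 called members, Tgfb3, Bmp4 and Fst among them, overlap another gene whose reads cannot be told apart from theirs. The 16 members not tested had at most 10 counts in any library and 5 of them had none, so nothing can be said of their direction. They were Inhbc, Inhbe, Bmp3, Bmp7, Bmp8b, Bmp10, Bmp15, Gdf1, Gdf2, Gdf5, Gdf10, Acvr1c, Bmpr1b, Nog, Chrdl2 and Fstl5.

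**Figure D1:**
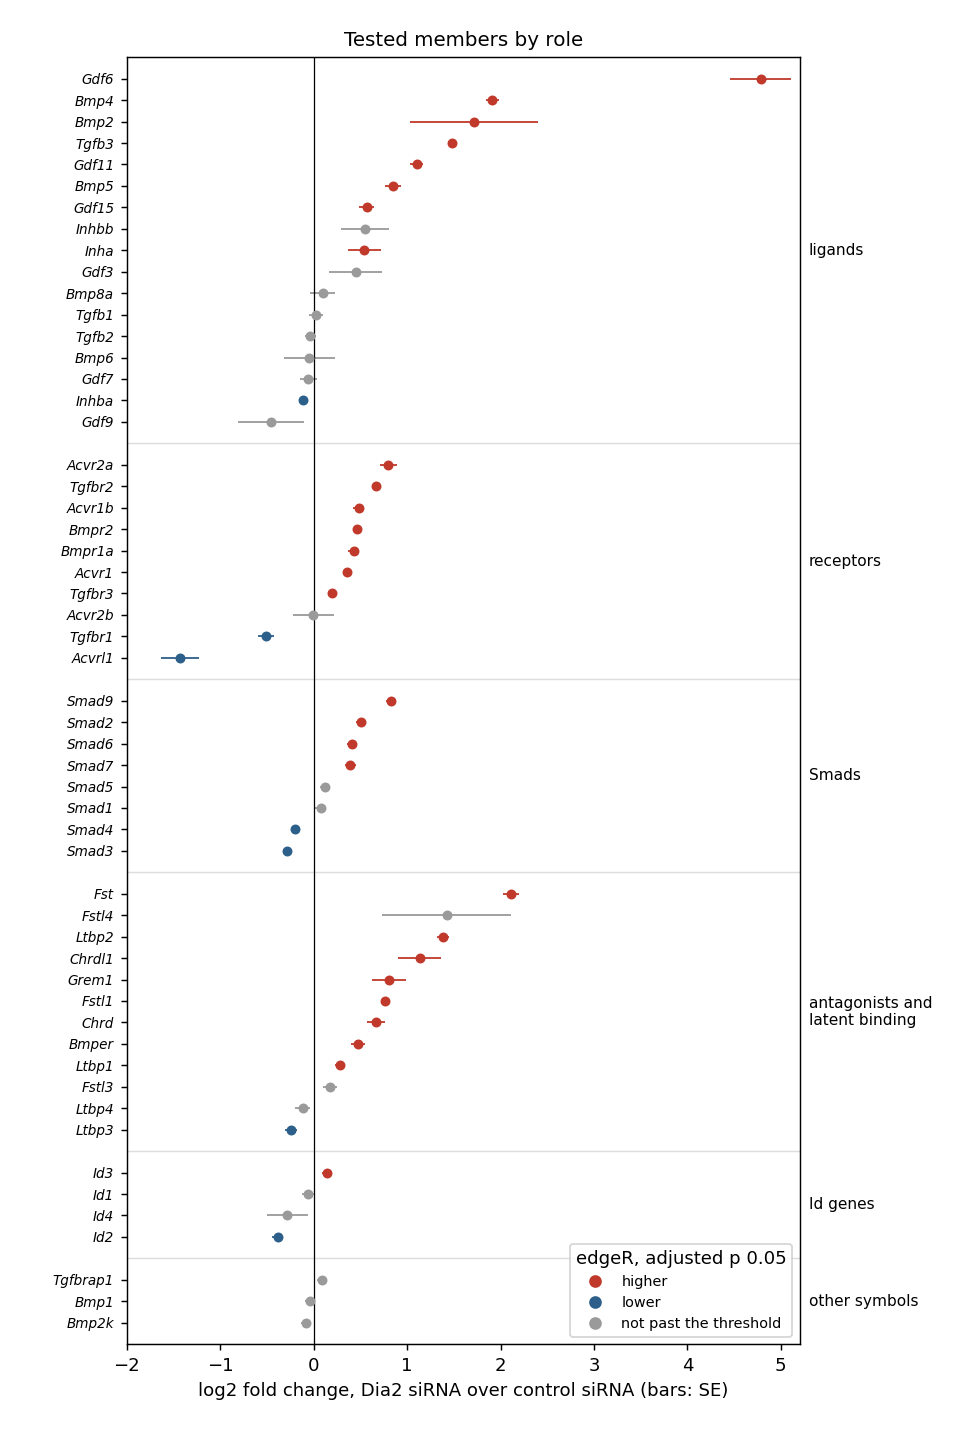
Log2 fold changes (x axis, Dia2 siRNA over control siRNA, with SE as bars) of tested members, sorted within each role, with red for higher, blue for lower and grey for members not past an adjusted p of 0.05. Ligands and antagonists reach furthest to the right, up to 4.79 for Gdf6 and 2.11 for Fst, while the 4 Id genes lie between -0.39 and 0.14.

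The TGF-beta ligands themselves split. Tgfb3, which signals through the same receptors as Tgfb1 and Tgfb2, stood at 222, 229 and 238 CPM in Dia2 siRNA replicates 1, 2 and 3, against 82.1, 82.3 and 82.7 CPM in control siRNA replicates 1, 2 and 3. The groups were far apart relative to their spread, and Tgfb3 was 2.79-fold higher (log2 fold change 1.48 ± 0.04 SE, adjusted p = 2.74e-10). Tgfb1, the most widely studied isoform, had 31.8, 33.7 and 34.7 CPM with Dia2 siRNA and 32.3, 36.6 and 29.5 CPM with control siRNA. Its groups overlapped and it did not pass (0.03 ± 0.08, adjusted p = 0.799). Tgfb2 had 65.3, 61.0 and 60.9 CPM with Dia2 siRNA and 59.6, 63.5 and 68.8 CPM with control siRNA, again with overlap (-0.04 ± 0.06, adjusted p = 0.633). On the deposited RPKM scale, which divides by length, Tgfb3 made up 70.0% ± 0.567 of the summed Tgfb1, Tgfb2 and Tgfb3 level with Dia2 siRNA and 45.5% ± 1.29 with control siRNA (SD, n = 3 each). Tgfb3 lies on chromosome 12 (86056743 to 86079041, minus strand, GRCm38).

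Of all 17 ligands tested 8 were higher and 1 lower, or 52.9% called, against 59.2% of all genes tested. Higher calls made up 47.1% of them and lower calls 5.88%, against 29.3% and 29.9% of all genes tested. Among the BMP and GDF ligands every member past the threshold was higher. Gdf6 and Bmp2 among them reached the filter only with their Dia2 siRNA libraries, so their direction adds nothing to this. Bmp4, a ligand that induces bone and mesoderm, stood at 26.3, 28.2 and 26.2 CPM with Dia2 siRNA, against 7.05, 7.72 and 6.61 CPM with control siRNA. The lowest Dia2 siRNA library was thus well above the highest control siRNA library, and the gene was 3.77-fold higher (1.91 ± 0.07, adjusted p = 1.32e-09; chromosome 14, 46383520 to 46390599, minus strand). Gdf11, a ligand close to myostatin that signals through Smad2 and Smad3, had 13.3, 14.3 and 14.3 CPM with Dia2 siRNA and 6.55, 6.60 and 6.35 CPM with control siRNA. It was 2.15-fold higher with no overlap (1.10 ± 0.07, adjusted p = 8.12e-08). Bmp5, a relative of Bmp7 that acts in cartilage and skeletal patterning, was at 6.86, 7.39 and 7.24 CPM with Dia2 siRNA and at 3.97, 3.94 and 4.03 CPM with control siRNA (0.85 ± 0.08, adjusted p = 3.75e-06). Both groups were tight and did not overlap. Gdf15, a stress-induced ligand that acts on a receptor outside the family, had 58.5, 52.8 and 58.5 CPM with Dia2 siRNA and 43.8, 36.7 and 34.0 CPM with control siRNA (0.57 ± 0.08, adjusted p = 9.5e-05).

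Gdf6, a joint and skeletal ligand, showed the largest ratio but was scarce, and it is named after its values were seen because its mean lay under 1 CPM. Its counts were 126, 180 and 154 with Dia2 siRNA, against 4, 4 and 8 with control siRNA, where 6 is the floor. Over summed fragments (counts divided by 2) it was 28.6 times higher, with an exact 95% interval of 14.3 to 67.0 that covers counting error only. It reached the filter through its Dia2 siRNA libraries alone, so it had to differ, and its fitted log2 fold change of 4.79 ± 0.32 is a description. Bmp2, a known bone inducer of the family, had 14, 26 and 18 counts with Dia2 siRNA and 16, 2 and 0 with control siRNA. It too reached the filter only with its Dia2 siRNA libraries, and it was called higher at 1.71 ± 0.68 (adjusted p = 0.0466), but this call was lost without control siRNA replicate 2 or 3 (adjusted p = 0.153 and 0.0824) or any Dia2 siRNA replicate (0.0734 to 0.136) and without a composition factor (0.0511), and the value was 3.89 without control siRNA replicate 1. With halved counts Bmp2 did not reach the filter and was not tested. The other tested ligands of this group did not pass, with Gdf3 at 0.45, Bmp8a (a near-identical copy of Bmp8b) at 0.10, Bmp6 at -0.05, Gdf7 at -0.06 and Gdf9 at -0.45 on the log2 scale.

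Of the activin and inhibin chains Inha was called higher and Inhba lower, and Inhbb did not pass. Inhba, the chain that forms activin A, was the ligand with the highest RPKM in control siRNA cells, at 35.7 with Dia2 siRNA and 39.6 with control siRNA. In CPM it had 66.9, 65.6 and 64.9 with Dia2 siRNA and 72.3, 69.8 and 70.9 with control siRNA, a 1.08-fold fall at the edge of the threshold (-0.11 ± 0.04, adjusted p = 0.0461). It lost its call under 10 of the 16 alternative settings. Inhbb, the activin B chain, had 53.0, 34.2 and 38.7 CPM with Dia2 siRNA and 35.1, 30.4 and 20.2 CPM with control siRNA. The spread within each group was wide, the groups overlapped, and it did not pass (0.55 ± 0.26, adjusted p = 0.118), although it did without control siRNA replicate 1 (0.72, adjusted p = 0.0372). Inha, the inhibin alpha chain, was near 1 CPM and was higher with Dia2 siRNA at 1.38, 1.73 and 1.69 CPM, against 0.943, 1.19 and 1.19 CPM with control siRNA (0.54 ± 0.18, adjusted p = 0.0191). Its call was lost without Dia2 siRNA replicate 2 or 3 or control siRNA replicate 1 (adjusted p = 0.0747, 0.0638 and 0.0812).

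**Figure D2:**
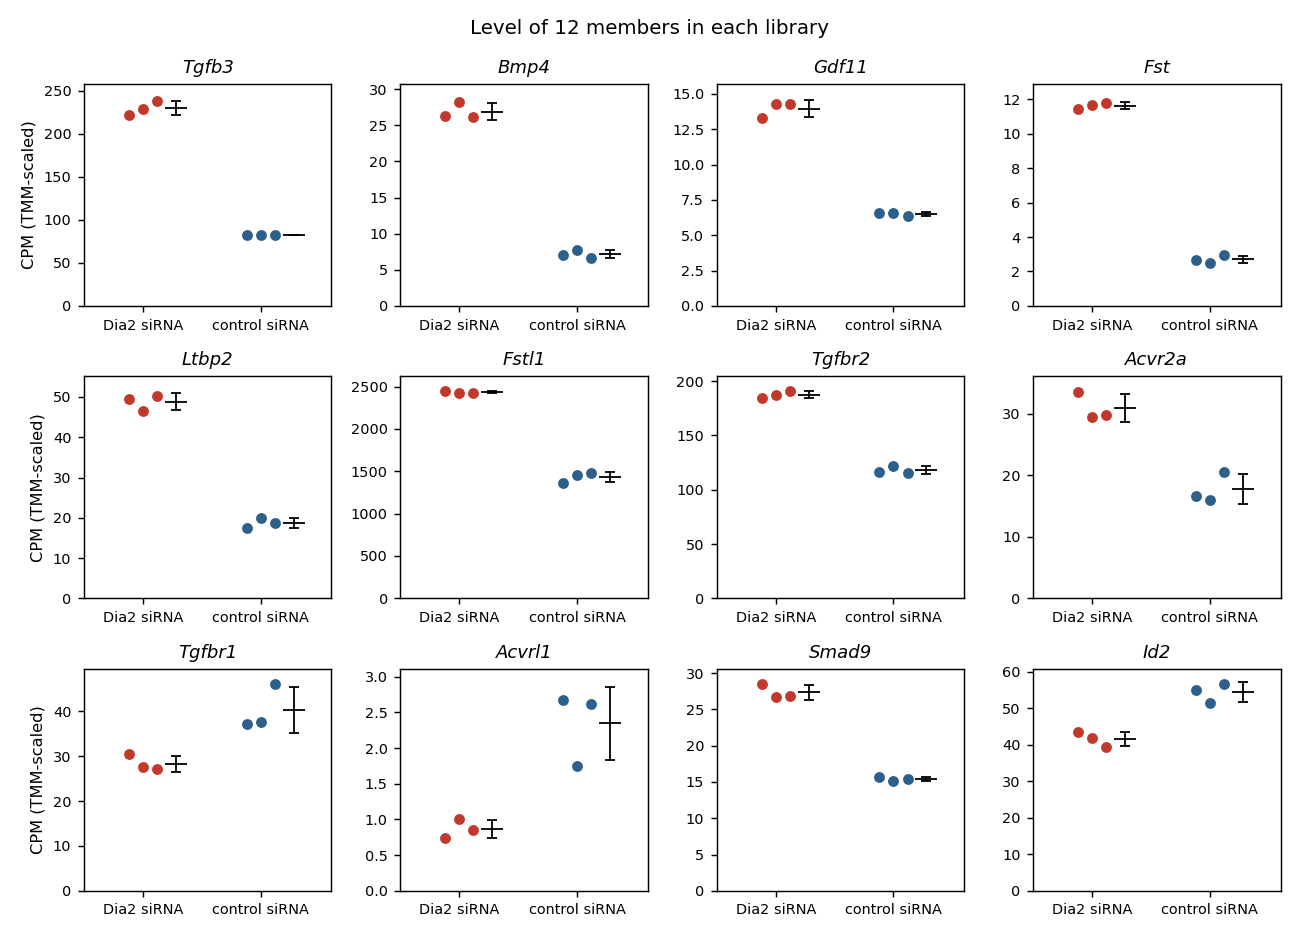
Level of 12 members in each library (y axes, TMM-scaled CPM from 0), with Dia2 siRNA libraries in red on the left, control siRNA libraries in blue on the right, and mean with SD in black. In each panel the 3 libraries of the groups do not overlap, and Tgfbr1, Acvrl1 and Id2 are the panels in which the Dia2 siRNA libraries lie lower.

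Receptor genes were higher in 7 and lower in 2 of 10 tested (29.3% and 29.9% of all genes tested), and the receptor pair for TGF-beta moved in opposite directions. Tgfbr2, the type II receptor that binds TGF-beta first, had 185, 187 and 191 CPM with Dia2 siRNA and 116, 122 and 115 CPM with control siRNA. It was 1.59-fold higher without overlap (0.67 ± 0.04, adjusted p = 1.06e-07; chromosome 9, 116087695 to 116175363, minus strand). Tgfbr1, the type I kinase it recruits, had 30.4, 27.6 and 27.1 CPM with Dia2 siRNA and 37.1, 37.7 and 46.2 CPM with control siRNA. It was 1.42-fold lower, again without overlap (-0.51 ± 0.09, adjusted p = 0.000259; chromosome 4, 47353305 to 47414924, plus strand). The ratio of Tgfbr2 to Tgfbr1 in RPKM was 7.19, 8.03 and 8.33 in the Dia2 siRNA libraries and 3.71, 3.83 and 2.95 in the control siRNA libraries. Tgfbr3, the co-receptor betaglycan and in control siRNA cells the receptor with the highest RPKM (30.0 with Dia2 siRNA and 26.9 with control siRNA), had 220, 220 and 215 CPM with Dia2 siRNA and 184, 193 and 196 CPM with control siRNA (0.19 ± 0.04, adjusted p = 0.00218).

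Acvrl1 (ALK1), a type I receptor best known from endothelium, was the member with the largest fall. It was at 0.744, 1.00 and 0.855 CPM with Dia2 siRNA and at 2.67, 1.75 and 2.61 CPM with control siRNA, a 2.69-fold difference without overlap (-1.43 ± 0.20, adjusted p = 5.99e-05). The summed level of 5 endothelial markers was 3.14 to 3.93 CPM with Dia2 siRNA and 3.83 to 4.70 CPM with control siRNA, with the defining gene Cdh5 at 0.032 CPM with Dia2 siRNA and 0 with control siRNA. Of the 4 tested, Kdr was 1.77-fold lower with Dia2 siRNA (-0.83, adjusted p = 0.0063), and Pecam1 (-0.39), Tek (-0.41) and Cd34 (-0.12) did not pass. The part of these markers in the Acvrl1 difference was not tested.

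The other BMP and activin receptors that passed were higher by 1.29- to 1.74-fold. Acvr2a, an activin and BMP type II receptor, had 33.5, 29.4 and 29.8 CPM with Dia2 siRNA and 16.7, 16.0 and 20.6 CPM with control siRNA (0.80 ± 0.09, adjusted p = 1.24e-05). Bmpr2, the BMP type II receptor, had 114, 111 and 108 CPM with Dia2 siRNA and 80.3, 79.2 and 81.3 CPM with control siRNA (0.47 ± 0.04, adjusted p = 1.81e-06). Bmpr1a, a BMP type I receptor, had 210, 203 and 198 CPM with Dia2 siRNA and 145, 145 and 164 CPM with control siRNA (0.43 ± 0.05, adjusted p = 3.11e-05). None of these 3 genes had overlapping groups, and the differences were several times their SE. Acvr1b, the activin type I receptor, rose with 19.7, 19.8 and 19.8 CPM in the Dia2 siRNA libraries and 14.1, 14.2 and 14.1 CPM in the control siRNA libraries (0.48 ± 0.05, adjusted p = 1.09e-05). Acvr1, a type I receptor for BMPs, rose as well (0.36 ± 0.04, adjusted p = 1.65e-05). The other activin type II receptor, Acvr2b, averaged 1.07 ± 0.187 CPM with Dia2 siRNA and 1.06 ± 0.219 CPM with control siRNA and did not pass (-0.0025 ± 0.22, adjusted p = 0.993).

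All 8 Smads were tested, and 4 were higher and 2 lower, so 75.0% were called, against 59.2% of all genes tested, and 25.0% were lower, near the background of 29.9%. The Smads of the TGF-beta and activin branch moved apart. Smad2 had 77.3, 77.5 and 72.9 CPM with Dia2 siRNA and 53.8, 50.6 and 55.7 CPM with control siRNA, 1.42-fold higher (0.51 ± 0.05, adjusted p = 4.34e-06). Smad3 had 88.5, 84.9 and 90.5 CPM with Dia2 siRNA and 107, 112 and 103 CPM with control siRNA, 1.22-fold lower (-0.28 ± 0.05, adjusted p = 0.000261). For both genes the groups did not overlap. Smad4, the partner common to both branches and in control siRNA cells the Smad with the highest RPKM (23.0 with Dia2 siRNA and 27.0 with control siRNA), had 95.3, 91.1 and 91.1 CPM with Dia2 siRNA and 104, 105 and 109 CPM with control siRNA (-0.19 ± 0.04, adjusted p = 0.00243).

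Of the BMP Smads only Smad9 passed. It had 28.5, 26.7 and 26.8 CPM with Dia2 siRNA and 15.7, 15.1 and 15.4 CPM with control siRNA, 1.78-fold higher without overlap (0.83 ± 0.06, adjusted p = 2.07e-07), although in RPKM it was the lowest of the 8 Smads in both groups (4.23 with Dia2 siRNA and 2.45 with control siRNA). Smad1 had 26.8, 27.2 and 27.2 CPM with Dia2 siRNA and 26.2, 25.4 and 25.5 CPM with control siRNA, a small shift that did not pass (0.07 ± 0.05, adjusted p = 0.262). Smad5 had 89.8, 85.3 and 84.1 CPM with Dia2 siRNA and 78.6, 75.4 and 84.2 CPM with control siRNA and did not pass (0.12 ± 0.05, adjusted p = 0.0593). It passed with upper-quartile factors (adjusted p = 0.0204), at a mean CPM of at least 1 (0.0371) and without control siRNA replicate 3 (0.00109), also with Dia2 siRNA replicate 1 left out (0.00742). Whether Smad9 changed more than Smad1 and Smad5 was not tested.

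The inhibitory Smads, which are themselves targets of the pathway, were both higher. Smad6, which acts mainly on BMP signalling, had 60.5, 59.4 and 59.0 CPM with Dia2 siRNA and 47.1, 43.8 and 43.7 CPM with control siRNA (0.41 ± 0.05, adjusted p = 1.92e-05). Smad7, which acts on both branches, had 76.4, 74.0 and 72.7 CPM with Dia2 siRNA and 60.7, 52.7 and 56.3 CPM with control siRNA (0.39 ± 0.06, adjusted p = 7.24e-05). The 3 Dia2 siRNA libraries were above all control siRNA libraries for each.

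Promoter windows (250 bases before to 50 after the annotated start, RefSeq, GRCm38.p6) were found for 51 of the 71 members, 64 windows in all, and were searched on both strands for the Smad-binding letters CAGAC, the GC-rich letters GGCGCC and the palindrome GTCTAGAC. CAGAC was in 32 of the 64 windows (50.0%) and in 49.6% of all 32851 windows, and GGCGCC was in 17 (26.6%) and in 11.9%. In windows of members that were higher CAGAC was in 12 of 22, in those of lower members in 2 of 6, and in those of members not past the threshold in 8 of 20. The palindrome was in 1 member window, that of Smad6, and in 0.213% of all windows. These matches describe letters and are not binding sites. The windows of Smad6 (palindrome over the start, bases -4 to 4), Ltbp2 and Id3 (CAGAC on either strand) and of Bmp4, which holds none of the 3, are shown 5′ to 3′ because they contrast a feedback Smad, a matrix gene, an Id gene and the ligand with the largest well-measured rise; capitals mark the matches.
Smad6, chr9:64022010-64022309, minus strand: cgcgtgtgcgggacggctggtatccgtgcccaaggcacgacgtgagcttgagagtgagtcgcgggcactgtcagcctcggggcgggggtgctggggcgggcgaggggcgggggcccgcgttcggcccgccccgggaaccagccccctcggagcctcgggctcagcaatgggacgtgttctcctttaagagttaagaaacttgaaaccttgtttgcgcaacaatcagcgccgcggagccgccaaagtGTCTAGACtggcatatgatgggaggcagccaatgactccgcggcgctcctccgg
Ltbp2, chr12:84876442-84876741, minus strand: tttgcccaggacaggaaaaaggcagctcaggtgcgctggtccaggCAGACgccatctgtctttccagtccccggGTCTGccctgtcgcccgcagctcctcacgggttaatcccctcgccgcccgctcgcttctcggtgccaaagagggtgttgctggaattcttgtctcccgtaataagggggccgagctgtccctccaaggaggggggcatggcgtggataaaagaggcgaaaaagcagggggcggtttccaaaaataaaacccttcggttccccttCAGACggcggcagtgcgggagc
Id3, chr4:136143572-136143871, plus strand: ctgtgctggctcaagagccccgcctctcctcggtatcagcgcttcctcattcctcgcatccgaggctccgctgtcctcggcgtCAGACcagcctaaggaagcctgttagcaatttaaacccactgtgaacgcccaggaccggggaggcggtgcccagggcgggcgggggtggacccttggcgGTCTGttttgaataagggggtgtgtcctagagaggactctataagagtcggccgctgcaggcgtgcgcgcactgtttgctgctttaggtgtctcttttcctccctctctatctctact
Bmp4, chr14:46390620-46390919, minus strand: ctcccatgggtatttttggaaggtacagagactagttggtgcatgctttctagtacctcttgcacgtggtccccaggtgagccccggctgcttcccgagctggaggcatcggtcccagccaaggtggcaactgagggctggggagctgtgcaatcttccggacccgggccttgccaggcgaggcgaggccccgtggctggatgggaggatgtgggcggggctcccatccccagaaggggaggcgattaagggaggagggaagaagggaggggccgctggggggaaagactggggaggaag
In Ltbp2 the letters begin at bases -205, -176 and 29 relative to the start and in Id3 at -167 and -68.

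Extracellular antagonists and latent binding proteins were higher in 9 and lower in 1 of 13 tested, where 29.3% and 29.9% of all genes tested were called higher and lower. Fst, follistatin, which binds activins nearly irreversibly and also binds some BMPs, had 11.4, 11.7 and 11.8 CPM with Dia2 siRNA and 2.69, 2.48 and 2.93 CPM with control siRNA. It was 4.32-fold higher (2.11 ± 0.09, adjusted p = 3.16e-09; chromosome 13, 114452262 to 114458730, minus strand), so the libraries of the groups stood far apart. Grem1, a BMP antagonist, was near 1 to 2 CPM, with 1.51, 2.25 and 2.07 with Dia2 siRNA and 1.01, 1.24 and 1.10 with control siRNA (0.81 ± 0.18, adjusted p = 0.00229). Grem1 was thus higher in every Dia2 siRNA library than in any control siRNA library.

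Chrd, chordin, which binds BMP2 and BMP4, had 6.51, 6.60 and 6.54 CPM with Dia2 siRNA and 3.72, 4.58 and 4.12 CPM with control siRNA (0.67 ± 0.10, adjusted p = 8.53e-05). Its relative Chrdl1 (1.13 ± 0.23) stayed under 1.1 CPM in every library. Bmper, which binds BMPs and can block or promote them, rose as well (0.48 ± 0.08, adjusted p = 0.000212). Noggin (Nog) had 2, 2 and 6 counts with Dia2 siRNA and 2, 0 and 2 with control siRNA, so no difference was detectable at this depth.

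Fstl1, a secreted glycoprotein of the follistatin-like group, was the most abundant member of all, at 559.5 RPKM with Dia2 siRNA and 337.8 RPKM with control siRNA. In CPM it had 2444, 2423 and 2424 with Dia2 siRNA and 1360, 1451 and 1480 with control siRNA, a 1.70-fold rise without overlap (0.76 ± 0.04, adjusted p = 4.71e-08). Fstl3, which inhibits activin, missed the threshold (0.18 ± 0.07, adjusted p = 0.0521) but passed with upper-quartile factors (adjusted p = 0.0244), at a mean CPM of at least 1 (0.0315) and with halved counts (0.0457). Fstl4 had only 24, 26 and 8 counts with Dia2 siRNA and 12, 10 and 0 with control siRNA and did not pass (adjusted p = 0.0938), although it did without Dia2 siRNA replicate 3 (1.82, adjusted p = 0.0374).

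The latent TGF-beta binding proteins did not move together. Ltbp2, which sits on fibrillin microfibrils and does not itself bind latent TGF-beta, had 49.6, 46.5 and 50.3 CPM with Dia2 siRNA and 17.5, 19.99 and 18.6 CPM with control siRNA, 2.61-fold higher (1.39 ± 0.07, adjusted p = 1.05e-08). Ltbp1, a main carrier of latent TGF-beta, had 644, 650 and 661 CPM with Dia2 siRNA and 555, 549 and 508 CPM with control siRNA (0.28 ± 0.05, adjusted p = 0.000329). Ltbp3, another carrier, had 388, 409 and 421 CPM with Dia2 siRNA and 484, 521 and 435 CPM with control siRNA (-0.24 ± 0.06, adjusted p = 0.00626). The carrier genes Ltbp1 and Ltbp3 thus changed in opposite directions by small amounts, and neither had overlapping groups. Ltbp4 did not pass (-0.12 ± 0.08, adjusted p = 0.247).

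**Figure D3:**
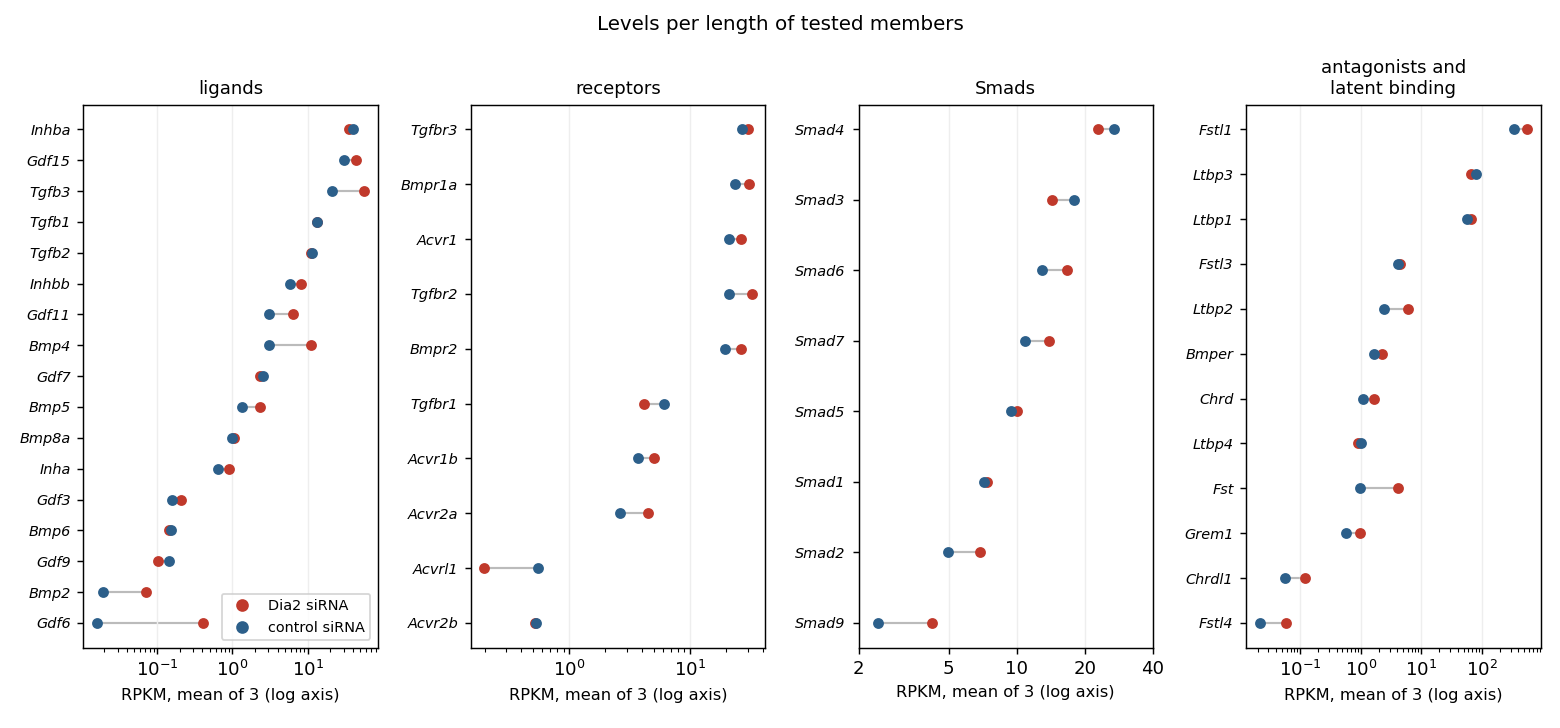
Mean deposited RPKM of 3 libraries (log x axes, which differ between panels) of tested ligands, receptors, Smads and antagonists, with Dia2 siRNA in red, control siRNA in blue, sorted by the control siRNA level. Ligand means with control siRNA ran from 0.0158 (Gdf6) to 39.6 (Inhba), and Fstl1 lay above every other member at 559.5 with Dia2 siRNA and 337.8 with control siRNA.

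On this scale the order of the leading ligands differed between the groups. With Dia2 siRNA it was Tgfb3 (56.5 ± 4.33 RPKM), Gdf15 (43.4 ± 2.83) and Inhba (35.7 ± 0.994), and with control siRNA it was Inhba (39.6 ± 1.80), Gdf15 (30.1 ± 4.86) and Tgfb3 (20.7 ± 0.810; SD, n = 3 each). These neighbours differed by more than their SDs. The receptors Tgfbr3, Bmpr1a, Acvr1, Tgfbr2 and Bmpr2, lay within 26.3 to 32.6 RPKM with Dia2 siRNA and within 19.5 to 26.9 RPKM with control siRNA, above Tgfbr1 at 4.15 RPKM with Dia2 siRNA and 6.05 RPKM with control siRNA.

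The Id genes, which encode inhibitors of basic helix-loop-helix factors, did not share a direction. Id1 had 29.4, 29.8 and 29.7 CPM with Dia2 siRNA and 33.4, 30.0 and 29.2 CPM with control siRNA, and its groups overlapped (-0.06 ± 0.06, adjusted p = 0.424). Id2 had 43.5, 41.7 and 39.5 CPM with Dia2 siRNA and 54.8, 51.4 and 56.7 CPM with control siRNA, a 1.31-fold fall without overlap (-0.39 ± 0.06, adjusted p = 0.000101). Id3, the most abundant of the 4 per length, had 99.0, 103 and 103 CPM with Dia2 siRNA and 97.0, 95.1 and 84.6 CPM with control siRNA. Its 1.10-fold rise was at the edge of the threshold (0.14 ± 0.05, adjusted p = 0.0418) and was lost without control siRNA replicate 2 or any Dia2 siRNA replicate (adjusted p = 0.0605 to 0.143) and without a composition factor (0.168). Id4 had 2.95, 2.77 and 2.76 CPM with Dia2 siRNA and 2.63, 2.68 and 5.13 CPM with control siRNA, so control siRNA replicate 3 alone was high (-0.28 ± 0.22, adjusted p = 0.289), and without it the value was 0.08. The Id genes thus gave 1 higher and 1 lower call of 4, where the background was 59.2% called.

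The 3 matched genes outside the named roles did not pass. Bmp1 had 345, 359 and 369 CPM with Dia2 siRNA and 371, 378 and 354 CPM with control siRNA (-0.04 ± 0.05, adjusted p = 0.494), Bmp2k had a log2 fold change of -0.08 and Tgfbrap1 of 0.09.

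A further list of 82 genes of the pathway that the symbol pattern leaves out was described in the same fit, and 35 of 67 tested were higher and 14 lower (73.1% called, against 59.2% of all genes tested). This list too was chosen with earlier results of these data known. Partners and regulators of Smads were divided, with 6 higher and 7 lower of 24. The co-repressor gene Ski (1.68-fold) averaged 211 ± 5.58 CPM with Dia2 siRNA and 125 ± 5.21 CPM with control siRNA. Zfyve9, the receptor anchor SARA, was 1.85-fold higher and Zeb1, a repressor that binds Smads, 2.17-fold higher. Hipk2, a kinase that works with Smad co-repressors, fell 2.64-fold to 22.4 ± 0.448 CPM with Dia2 siRNA, against 58.9 ± 5.40 CPM with control siRNA (-1.40 ± 0.07, adjusted p = 1.42e-08).

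Co-receptors and activators were higher in 6 and lower in 3 of 12 tested, or 75.0% called, against 59.2% of all genes tested. Thbs1, thrombospondin, which can activate latent TGF-beta, averaged 7851 ± 206 CPM with Dia2 siRNA and 3665 ± 220 CPM with control siRNA (1.10 ± 0.05, adjusted p = 4.82e-09). Dcn, decorin, which binds TGF-beta, rose 1.88-fold, the co-receptor gene Eng 1.53-fold and Rgma, a BMP co-receptor, 1.33-fold. The 3 lower genes were Lrrc32 (-0.31), Rgmb (-0.18) and Fkbp1a (-0.11). The list of other secreted antagonists had 4 higher and none lower of 5 (Dand5 missed the threshold at -0.04), but Tll1, a tolloid protease that cleaves chordin (0.92), is no antagonist. Twsg1 (0.58), Nbl1 (0.36) and Crim1 (0.24), which bind BMPs, made up the rest. Of 5 other ligands only Amh was high enough to test, at 0.190 CPM with Dia2 siRNA and 0.566 CPM with control siRNA (-1.55 ± 0.35). Its counts were 8, 22 and 22 with Dia2 siRNA and 78, 42 and 34 with control siRNA. Amh, among the 14 lower, reached the filter only with its control siRNA libraries, so its call is a description.

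Of 16 TGF-beta response genes 11 were higher and 3 lower, and of 9 tested BMP response genes 8 were higher and none lower (Msx2 missed the threshold at 0.07), beside 29.3% higher and 29.9% lower over all genes tested. Klf10, an early TGF-beta target, averaged 62.4 ± 4.11 CPM with Dia2 siRNA and 34.7 ± 1.96 CPM with control siRNA (0.85 ± 0.06). Nox4, an oxidase, rose (0.54), while Tgfbi, a matrix adhesion protein, and Snai2, a repressor of epithelial genes, each fell at -0.56. Among BMP response genes the homeobox genes Dlx3 (3.13-fold) and Dlx5 (2.83-fold) and the bone genes Alpl (2.39-fold) and Runx2 (2.02-fold) had the largest rises at 1 CPM or more. These bone genes were known to be higher from earlier results of these data, so their counts are a description. Sp7, among the 8 higher, had 52, 82 and 68 counts with Dia2 siRNA and 12, 0 and 10 with control siRNA. It reached the filter only with its Dia2 siRNA libraries, so its call is a description as well.

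**Figure D4:**
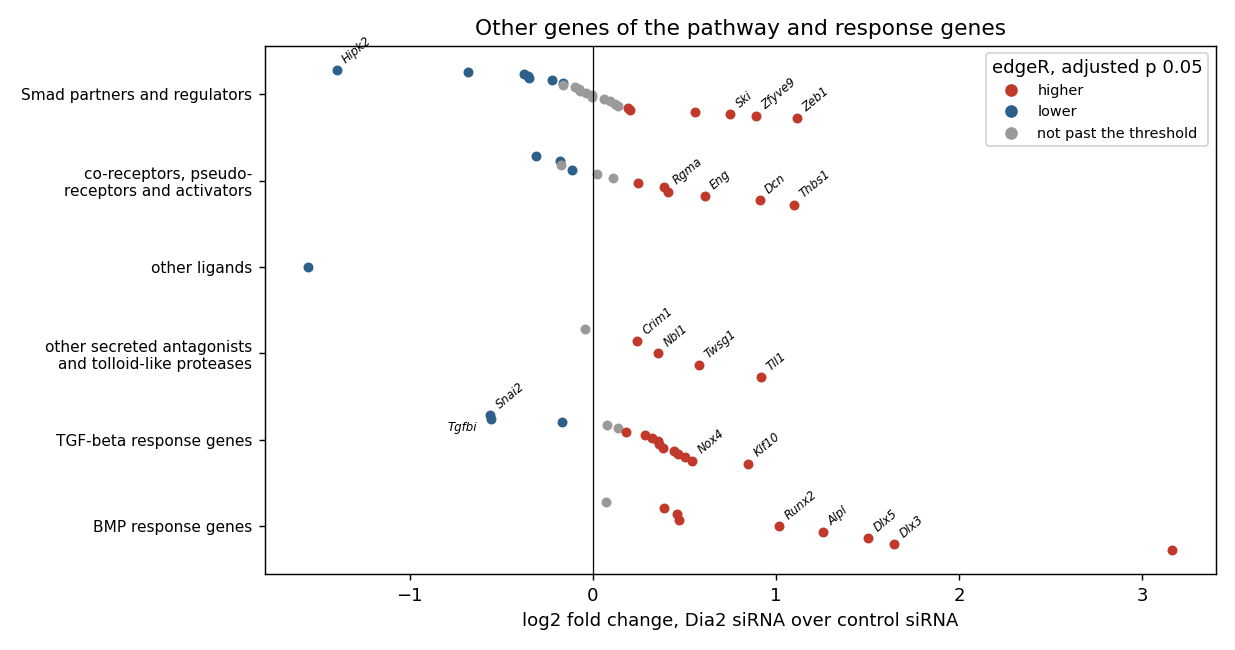
Log2 fold changes (x axis, Dia2 siRNA over control siRNA) of the 67 tested genes of the further list, in rows by function, with red for higher, blue for lower and grey for genes not past an adjusted p of 0.05. Smad partners spread to both sides of 0 (6 higher and 7 lower), while 8 of the 9 BMP response genes lie to the right as calls. The unlabelled point near 3.16 is Sp7, at 0.757 CPM with Dia2 siRNA and 0.0840 CPM with control siRNA. It reached the filter only with its Dia2 siRNA libraries.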

How the data were processed

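Groups and replicate numbers came from the sample titles. Per the file headers, the authors deposited raw gene counts, RPKM values and a coding length per gene. The submitters' processing notes name bcl2fastq, TopHat2 2.0.6 and HTSeq, beside the human builds hg19 and GRCh37. However, the table holds mouse genes, and 99.4% of 20970 rows overlapped the GENCODE M21 gene of their symbol, so coordinates were read as GRCm38. Strand setting and treatment of multi-mapped reads were not given in the sources used here, so 23 members whose exons overlap another gene (11 of the 36 called) cannot be told apart from it. The 11 were Tgfb3, Bmp4, Bmp5, Tgfbr3, Acvrl1, Acvr2a, Bmpr1a, Chrd, Fst, Ltbp2 and Ltbp3. All deposited counts were even, with 0 odd values, so a fragment seems to count as 2, and a floor of 6 counts stands for 3 fragments. The authors' deposited RPKM values were used only to compare levels between genes.

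Counts were filtered with filterByExpr (minimum 10 counts, 15 in total, scaled to library size), scaled by TMM and fitted over the whole table with edgeR 4.0.16 (quasi-likelihood, robust, no covariates; limma 3.58.1, R 4.3.3), with Benjamini-Hochberg adjustment at 0.05. SE is the absolute log2 fold change divided by the square root of F. Replicate pairs differed beyond sampling noise (chi-square per degree of freedom 6.70 to 85.2 on halved counts), and all 6 libraries were kept. Control siRNA replicate 3 stood apart, at 85.2 and 77.3 from replicates 1 and 2, with 6.70 between those. Dia2 siRNA replicate 1 was at 30.5 and 56.6 from replicates 2 and 3, with 9.94 between those. The fit was tested on simulated data with 200 changed genes. Members and lists were chosen with earlier results of these data known. Members given in full are Tgfb1 to Tgfb3, Tgfbr1 to Tgfbr3, Acvrl1, Bmpr1a, Bmpr2, all Smads and Id genes, and in each role the 6 largest called changes at a mean of at least 1 CPM; from each group of the further list, the 4 largest. Others are given to describe their role, and 1 member that counts among the antagonists is not reported here. Alternatives were DESeq2 1.42.0 size factors or test, upper-quartile or no composition factors, other filters, limma-voom, a replicate block, halved counts, and left-out libraries.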

Additional observations from a re-analysis of the deposited data

How the results depend on the processing

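Of the 36 called members 32 kept direction and call under each of the 16 alternatives that tested them; the exceptions were Inhba, Id3, Bmp2 and Inha. Of 19 members not past the threshold Inhbb, Smad5, Fstl3 and Fstl4 passed in at least 1. No called member reversed. Leaving out each library in turn gave 26 to 29 members higher and 6 to 7 lower, 6 to 8 ligands higher and 0 to 1 lower, and 0 to 1 Id genes higher. The lower ligand (Inhba) was called in 0 cases with upper-quartile factors (adjusted p = 0.154), no composition factor (0.0526), no filter beyond 1 count (0.0770), a mean CPM of at least 1 (0.0711) or the replicate block (0.121). Id genes called higher numbered 0 with no composition factor and 0 with the replicate block. The cause was not tested.

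Signs of uncalled members turned as follows. Left-out libraries moved Tgfb1 between -0.047 and 0.11, Tgfb2 between -0.090 and 0.017, Bmp6 between -0.14 and 0.035, Bmp8a between -0.046 and 0.16, Acvr2b between -0.15 and 0.12 and Id4 between -0.46 and 0.085. Acvr2b was 0.033 with upper-quartile factors, 0.011 at a mean CPM of at least 1 and 0.014 with the replicate block. Without control siRNA replicate 3 and Dia2 siRNA replicate 1 together, the libraries richest in Rn45s, Tgfb1 was -0.011, Bmp8a -0.00913 and Id4 0.055, and 29 members were higher and 7 lower.

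Replicate numbers did not pair the samples: deviations from group means correlated at -0.135, -0.0276 and -0.244 between same-numbered libraries over 11664 genes. Between libraries of unlike number they ran from -0.0803 to 0.203, highest for Dia2 siRNA replicate 3 with control siRNA replicate 1. With the replicate block 30 members were higher and 6 lower, Inhbb (0.56, adjusted p = 0.0021) and Fstl4 (1.597, 0.0359) passing with it. Depth limits statements on the 16 untested members and the 7 tested under 1 CPM.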

Other observations

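The 3′ untranslated regions of the members were searched for 3 kinds of 7-base words. For each gene the coding transcript with the longest such region was used (GENCODE M21). The letters AACTTAA pair with bases 2 to 8 of the antisense strand of the stated Dia2 siRNA. The words TATGTGA and ATGTGAA (which share 6 letters) and the word GCAGTAC are those that an earlier scan of these data linked with lower and higher genes, so their presence is no independent support. AACTTAA was in 2 of 7 lower members, 6 of 29 higher members and 6 of 19 not past the threshold, against 13.1% of 12085 tested genes. TATGTGA or ATGTGAA was in 3 of 7 lower members (Inhba, Acvrl1 and Ltbp3), in 11 of 29 higher members and in 23.5% of tested genes. GCAGTAC was in 3 of 7 lower members, 5 of 29 higher members (Tgfb3, Gdf11, Acvr2a, Smad2 and Smad7) and 5.81% of tested genes. Members had longer 3′ untranslated regions than tested genes, with medians of 1570 and 1192 bases. The part of these words in the members' changes was not tested.

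The sites in Tgfb3, Acvrl1 and Tgfbr1, which include the TGF-beta ligand that rose and the receptors that fell, are shown 5′ to 3′ with the word in capitals.
Tgfb3, chromosome 12: ttgctcactGCAGTACatctgctct
Acvrl1, chromosome 15: tatttagaaATGTGAAgggttcacc
Acvrl1, chromosome 15: aggacccagGCAGTACaagaacttc
Tgfbr1, chromosome 4: tataaaaatAACTTAAaaattgaga
Tgfbr1, chromosome 4: tttgctttaAACTTAAattacctct
Tgfbr1, chromosome 4: tttgggagtGCAGTACagcttcatg
Tgfbr1 and Acvrl1, both lower with Dia2 siRNA, thus hold the word linked with higher genes as well.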
